A study of Mus musculus with 2 samples.

Results

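On the Affymetrix Clariom D mouse array, probes for 1 stretch of transcribed sequence are summarised into a transcript cluster, and some clusters are annotated to more than 1 gene symbol. Such clusters were taken as every row of the deposited value table that is a transcript cluster and has 2 or more different gene symbols in the platform annotation. There were 2146 of them among 65956 transcript clusters, beside 30604 clusters with 1 symbol and 33206 with none. After old symbols were updated through RefSeq, 1484 still held several genes and 662 held several names of 1 gene.

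The RNA came from intestinal stem cells sorted as GFP-positive from the small intestine of 8-week-old Lgr5GFP-CreERT2 mice, in which the Lgr5 locus drives the fluorescent protein. One group was circPan3+/+ and the other circPan3-/-, which lacks circPan3, a circular RNA of the Pan3 gene, and both carried the Lgr5GFP-CreERT2 allele. Each genotype has 1 array, and the sources used here do not say whether a sample was 1 mouse or a pool. There is thus no error and no p-value for any difference, which describes the 2 arrays and not the genotypes in general. All differences are circPan3-/- minus circPan3+/+ in log2 signal.

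A cluster can name several genes for different reasons. A microRNA or small nucleolar RNA gene often lies inside an intron or exon of a host gene, so probes on the host transcript also cover the small RNA gene. Members of a young gene family, such as the globins, the histones or the alpha defensins of Paneth cells, can share nearly all of their sequence. A processed pseudogene is a copy of a messenger RNA and shares the sequence of its parent. The value of such a cluster belongs to all of its genes together, and none is given here to a single gene.

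The cluster that holds Ctnnb1 also holds Mir7090, whose hairpin lies inside Ctnnb1 in RefSeq. Ctnnb1 encodes beta-catenin, which carries the canonical Wnt signal into the nucleus and also joins cadherins to the cytoskeleton at cell junctions. The mature sequences from RefSeq (GRCm38.p6) are given for the microRNAs of this cluster and of 3 others that stood far apart, with the seed (bases 2 to 8) in capitals. The arms of miR-7090 lie on the plus strand at chr9:120955089-120955111 and chr9:120955128-120955147. Those of miR-7678, in Slpi, lie on the minus strand at chr2:164354363-164354383 and chr2:164354313-164354334. Those of miR-7657, in Fnbp1l, lie on the minus strand at chr3:122541661-122541681 and chr3:122541625-122541647. miR-692, of the gene Mir692-3 that shares clusters with Ftl1, is placed by RefSeq on the plus strand at chr13:74407121-74407141, which is not in Ftl1. The seeds of these mature sequences all differ.
miR-7090-5p: uCUCAGAGuugggacaccaugag
miR-7090-3p: uUUGAUGUcugacuuugcag
miR-7678-5p: uUACAAGGgcuggauaggaau
miR-7678-3p: uUUCCUUAcuuucucuuguagc
miR-7657-5p: aAUAGUUGgauaguuagguaa
miR-7657-3p: uUCCUUGCuauucccaacuuggu
miR-692: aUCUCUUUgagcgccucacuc

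Promoters are shown for families whose clusters stood apart together, to show how alike the genes of 1 cluster can be. RefSeq windows (GRCm38.p6) run from 250 bases before to 50 after a transcript's start, and the 250 bases before the start are printed for Hba-a1, an alpha globin gene (plus strand, chr11:32283422-32283671), and Defa31, an alpha defensin gene (plus strand, chr8:21191323-21191572). The windows of Hba-a1 and Hba-a2 are the same at 297 of 297 bases when moved by 3 bases, and those of Defa31 and Defa23 at 300 of 300. Other pairs were less alike when moved by up to 20 bases. Sprr2a3 and Sprr2a1, which share a cluster, were the same at 34.4% of bases. Over all 120 pairs of alpha defensin windows, in 1 cluster or not, the median was 49.8% and the lowest 30.3%. Capitals mark CCAAT, a site of many promoters, and the CACCC box in the globin promoter. In the defensin promoter they mark ATCAAAG, which is the core of the site of TCF factors, and the TATAAA box.
Hba-a1: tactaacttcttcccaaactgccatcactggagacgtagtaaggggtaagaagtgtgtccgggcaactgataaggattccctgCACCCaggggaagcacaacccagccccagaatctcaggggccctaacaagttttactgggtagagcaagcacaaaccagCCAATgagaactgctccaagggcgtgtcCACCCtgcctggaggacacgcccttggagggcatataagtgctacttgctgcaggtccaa
Defa31: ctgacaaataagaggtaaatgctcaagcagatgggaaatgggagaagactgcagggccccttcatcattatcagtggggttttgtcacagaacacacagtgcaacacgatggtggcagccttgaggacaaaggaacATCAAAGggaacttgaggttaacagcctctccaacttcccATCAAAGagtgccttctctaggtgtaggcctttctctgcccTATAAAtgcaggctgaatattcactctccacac

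The motifs of this paragraph, chosen after the leading families were known, were looked for on both strands of these 300-base windows. ATCAAAG was found in 13 of the 16 alpha defensin promoters of the table, against 3.73% of all 32851 promoters. Of the 15 gene names in the shared defensin clusters 10 had a promoter in the table, and 8 of those held ATCAAAG. The TATAAA box was in 15 of the 16 defensin promoters, against 13.6% of all promoters. The CCAAT box was in 13 of them, against 37.4% of all. The CACCC box was in 4 of them, against 57.5% of all. AGATAA, the only form of the GATA factor word looked for, was in 0 of them, against 11.2% of all. Both alpha globin windows held the CACCC and the CCAAT box and neither held any of the other motifs. Because 7 of the 120 pairs of defensin windows are the same throughout, these promoters are not independent of each other. A match is a string of letters and not a measured binding site.

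Rows of negative control probes set the limit of low values. Their 95th percentile, 5.06 for circPan3+/+ and 5.56 for circPan3-/-, is called the limit. A cluster with only its brighter value above the limit of its array gets a lower bound of the fold (at least N-fold), measured against the limit of the dimmer array; one with both values under gets none. The median difference of all transcript clusters past a filter on mean level (2.53, the median of all rows) was 0.29, so a difference near that value stands close to the middle of the arrays. Repeated values were common: 74.0% of these clusters had the same circPan3+/+ value as some other row, and 11.5% the same circPan3-/- value. Over all rows the shares were 69.1% and 4.20%, so the 2 arrays were unlike in these repeats across the whole array. The part of this in the differences was not tested. On its own row Lgr5, which marks the sorted cells, stood at 10.91 in circPan3+/+ and at 7.02 in circPan3-/- cells. Of 16 stem cell marker genes with their own row, 8 were higher by 2-fold or more in circPan3-/- (4 with bounds) and 2, Lgr5 and Olfm4, lower, and of 22 myeloid marker genes 0 were higher and 17 lower (8 with bounds). The background for these and later counts of genes with their own row is that of all clusters with 1 symbol past the filter. Of those 8.55% were higher and 3.89% lower, and with bounds 3.11% and 1.42%. In bulk RNA, fewer cells of a type and less RNA per cell cannot be told apart. The row of Pan3 reports the host transcript, at 4.84 and 5.64, and does not check the deletion of the circle.

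Of the 2146 clusters, 350 lay above the limits on both arrays, 83 in circPan3+/+ only, 23 in circPan3-/- only and 1690 (78.8%) on neither. The share on neither array was 79.4% among the clusters with 1 symbol. Past the filter there were 1316 clusters, of which 105 (7.98%) were higher in circPan3-/- by 2-fold or more and 74 (5.62%) lower. Over all transcript clusters past the filter the background was 9.4% higher and 3.81% lower, and over those with 1 symbol 8.55% higher and 3.89% lower. The higher share is near the background. Of the 74 lower rows, 30 are repeats of the SNORD116 locus that hold only 2 pairs of values. With each pair of values counted once, 103 clusters (8.12%) were higher and 37 (2.92%) lower, against 9.56% and 3.29% of all transcript clusters and 8.65% and 3.36% of those with 1 symbol counted the same way. Both shares are then near the background, and the lower share no longer lies above it.

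Counted with bounds, 56 clusters were at least 2-fold higher and 50 lower, against backgrounds of 2.46% and 1.41% of all transcript clusters past the filter and 3.11% and 1.42% of those with 1 symbol. As shares of the 1316 these are 4.26% and 3.80%. The 50 include the 30 SNORD116 rows. With each pair of values once, 55 (4.34%) were higher and 15 (1.18%) lower with bounds. Backgrounds counted the same way are 2.51% and 1.10% of all transcript clusters, and 3.14% and 1.09% of those with 1 symbol. The lower share is then near the background. The median difference was 0.30 over the clusters past the filter and 0.43 over the 350 above the limits on both arrays, against 0.42 for the clusters with 1 symbol above both limits. After centring on the median of all transcript clusters, 50 (3.80%) were higher and 91 (6.91%) lower, against 4.62% and 6.41% of all transcript clusters and 3.86% and 6.49% of those with 1 symbol. With each pair of values once, 48 (3.79%) were higher and 54 (4.26%) lower after centring. The backgrounds are then 4.68% and 5.69% of all transcript clusters, and 3.91% and 5.70% of those with 1 symbol. The higher share of the called clusters was 58.7% as deposited and 35.5% after centring, so the balance of higher and lower depends on the scaling.

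**Figure D1:**
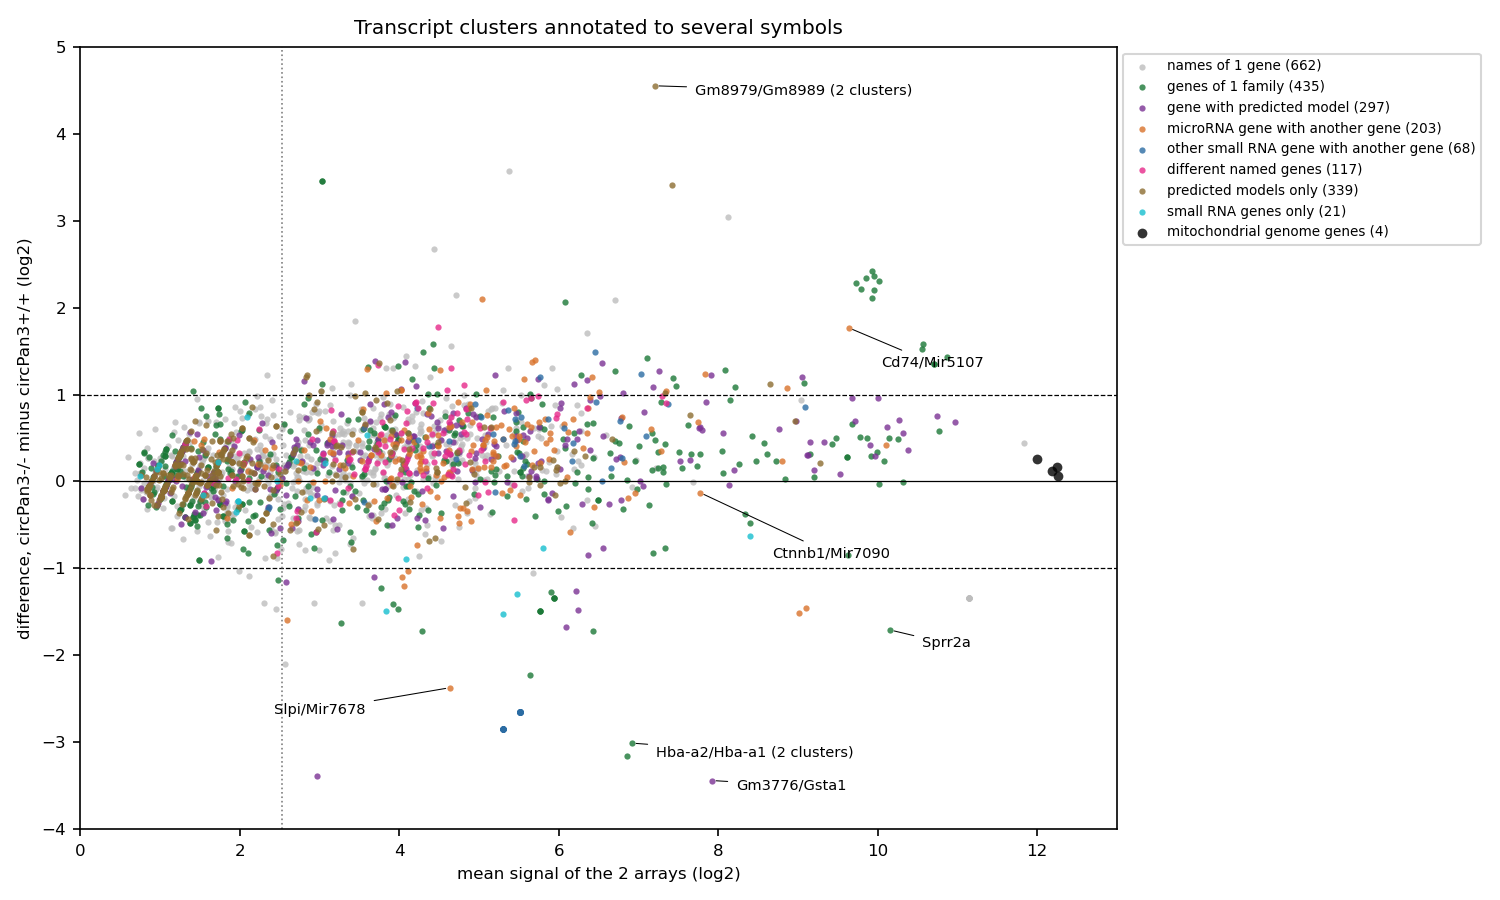
Difference between the arrays (circPan3-/- minus circPan3+/+, log2) against the mean log2 signal of both arrays for the 2146 clusters annotated to several symbols, 1 point a cluster, coloured by kind with the number of clusters in brackets. Dashed lines mark 2-fold and the dotted line the filter at 2.53; the 4 mitochondrial clusters are the brightest and lie near 0, and 1 Gm8979/Gm8989 cluster lies furthest above 0 and Gm3776/Gsta1 furthest below.

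The signal of the Ctnnb1/Mir7090 cluster was 7.84 in circPan3+/+ cells and 7.71 in circPan3-/- cells. Both values lay above the limits, and the cluster was number 100 of the 2146 by mean signal. The difference was -0.13, a 1.09-fold lower signal in circPan3-/-. Among the 457 transcript clusters within 0.25 of its mean level, whose median difference was 0.27, it stood at percentile 30.0. It was -0.42 after centring, -0.46 after loess and -0.40 after quantile normalization, under 2-fold in each case. The row gives 1 value for Ctnnb1 and Mir7090 together. The positions of its probes were not known here, and the mature microRNA was not read by this row.

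The difference of the Ctnnb1 cluster lay below the median of the genes that act with it. Of 25 genes of the Wnt machinery with their own rows, 5 were higher by 2-fold or more (3 with bounds) and 0 lower, with a median of 0.51. The background over all clusters with 1 symbol past the filter was 8.55% higher and 3.89% lower. Axin2, a scaffold of the beta-catenin destruction complex and a Wnt target, had signals of 4.25 and 5.97, which is at least 1.88-fold higher in circPan3-/-. The destruction complex kinase Csnk1a1 had signals of 5.72 and 7.20, a difference of 1.49. The Wnt receptors Fzd5 and Lrp6 differed by 1.38 (5.37 and 6.75) and 1.02 (5.09 and 6.11). Bcl9, a nuclear cofactor of beta-catenin, had signals of 4.13 and 5.15, both under the limits. Of the others in the destruction complex, Apc differed by 0.29 and Gsk3b by 0.78. The transcription factor gene Tcf7l2 differed by 0.99 and Lef1, the lowest of the list, by -0.55. Dvl2, which relays the signal from the receptor, shares its cluster with Mir324, and that cluster had signals of 4.13 and 4.41.

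Of 9 cadherin and catenin genes of the adherens junction with their own rows 8 lay above 0, as did 71.8% of all transcript clusters past the filter. Of the 9, 2 were higher by 2-fold or more and 1 lower, with a median of 0.73. Cdh1, which encodes E-cadherin, stood at 8.09 in circPan3+/+ and 9.25 in circPan3-/-, a 2.24-fold difference with both values above the limits. The junction scaffold gene Afdn had signals of 5.01 and 6.18, at least 2.18-fold higher. Cdh2, N-cadherin, had 5.31 and 3.63, and no fold is given because the bright value did not pass the other array's limit. Ctnna1, Ctnnd1, Jup and Vcl differed by 0.55, 0.89, 0.73 and 0.12. After centring, which takes 0.29 from each difference, 3 of the Wnt genes and 0 of the junction genes were higher by 2-fold or more, and 8 of the 25 Wnt genes, Apc among them, 3 of the 9 junction genes and the Dvl2/Mir324 cluster lay below 0.

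**Figure D2:**
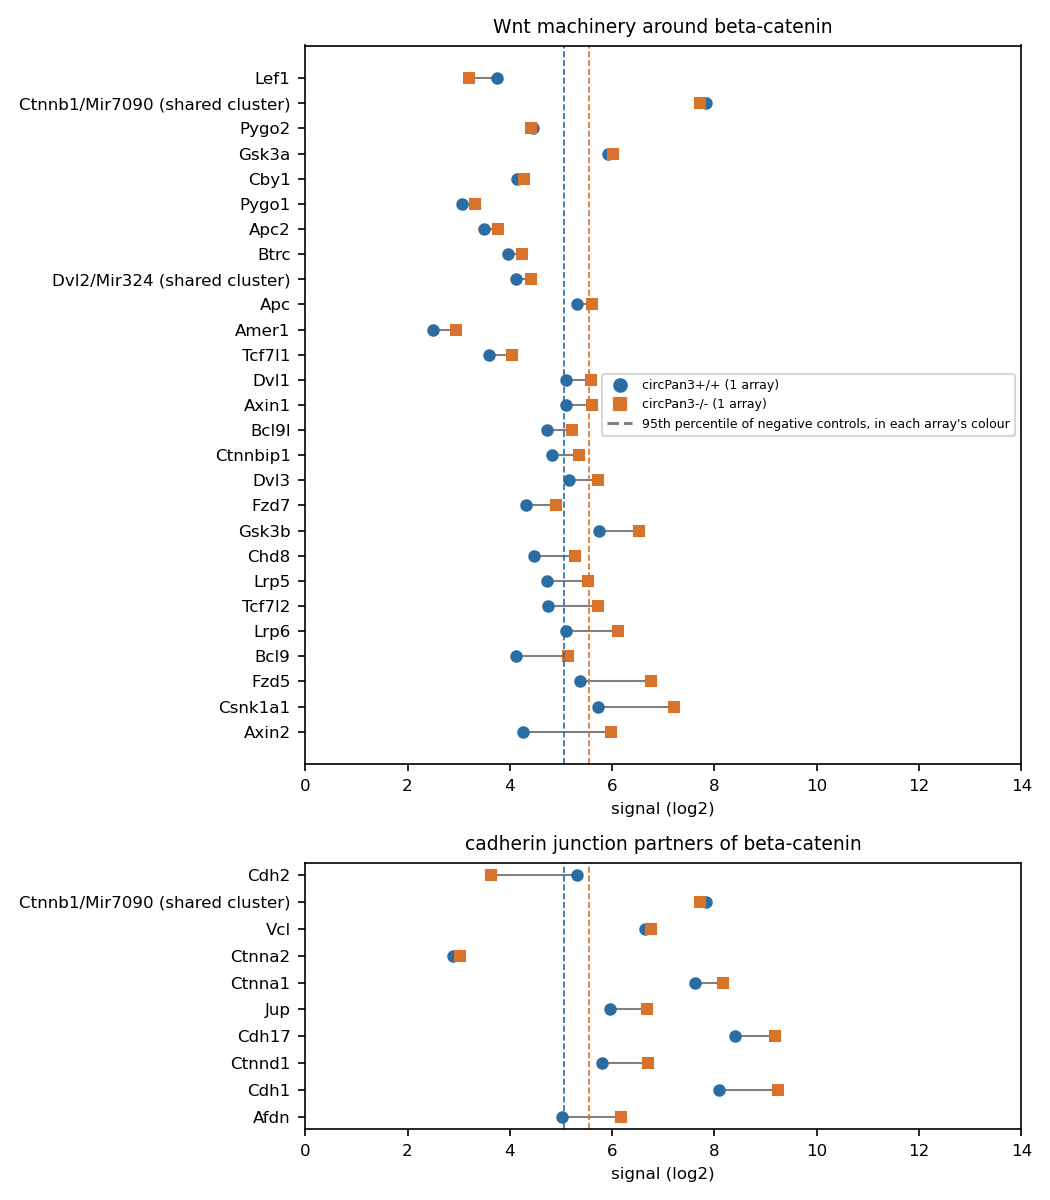
Log2 signal of the genes of the Wnt machinery (top) and of the cadherin junction (bottom) for circPan3+/+ (circles) and circPan3-/- (squares), with the 95th percentile of negative controls of each array dashed (5.06 and 5.56). The Ctnnb1/Mir7090 cluster is among the few whose square lies left of its circle, at 7.84 and 7.71.

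The brightest clusters were transcripts of the mitochondrial genome, which encodes subunits of the respiratory chain and is transcribed as long precursors. ND5/CYTB stood at 12.23 in circPan3+/+ cells and at 12.29 in circPan3-/- cells, ATP8/ATP6/COX3 at 12.17 and 12.33, ND4/ND4L at 12.13 and 12.25, and mt-Rnr2/ND1 at 11.87 and 12.12. Their differences, from 0.06 to 0.25, were all below the 0.29 shift of the arrays. Next came Mir6236, at 11.61 and 12.05, which is listed under a pair of names of 1 gene.

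The bright nuclear clusters did not all differ the same way. The 6 rows of 5S ribosomal RNA copies (Rn5s10/Gm25018) hold the same pair of values, 11.82 in circPan3+/+ and 10.48 in circPan3-/-, which is 2.53-fold lower, and their circPan3+/+ value stands in 32 rows. Gm7336/Gapdh, the glycolytic enzyme gene with a predicted copy, had 10.63 and 11.32, a difference of 0.69, whereas a row of Gapdh alone had 9.57 and 9.71, a difference of 0.14. Gm15459/Hspa8, a constitutive heat shock protein gene with a copy, had 10.38 and 11.13, and the row of Hspa8 alone 11.10 and 12.05. The histone H2A cluster led by H2ac22 and H2ac23 had 10.47 and 11.06.

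**Figure D3:**
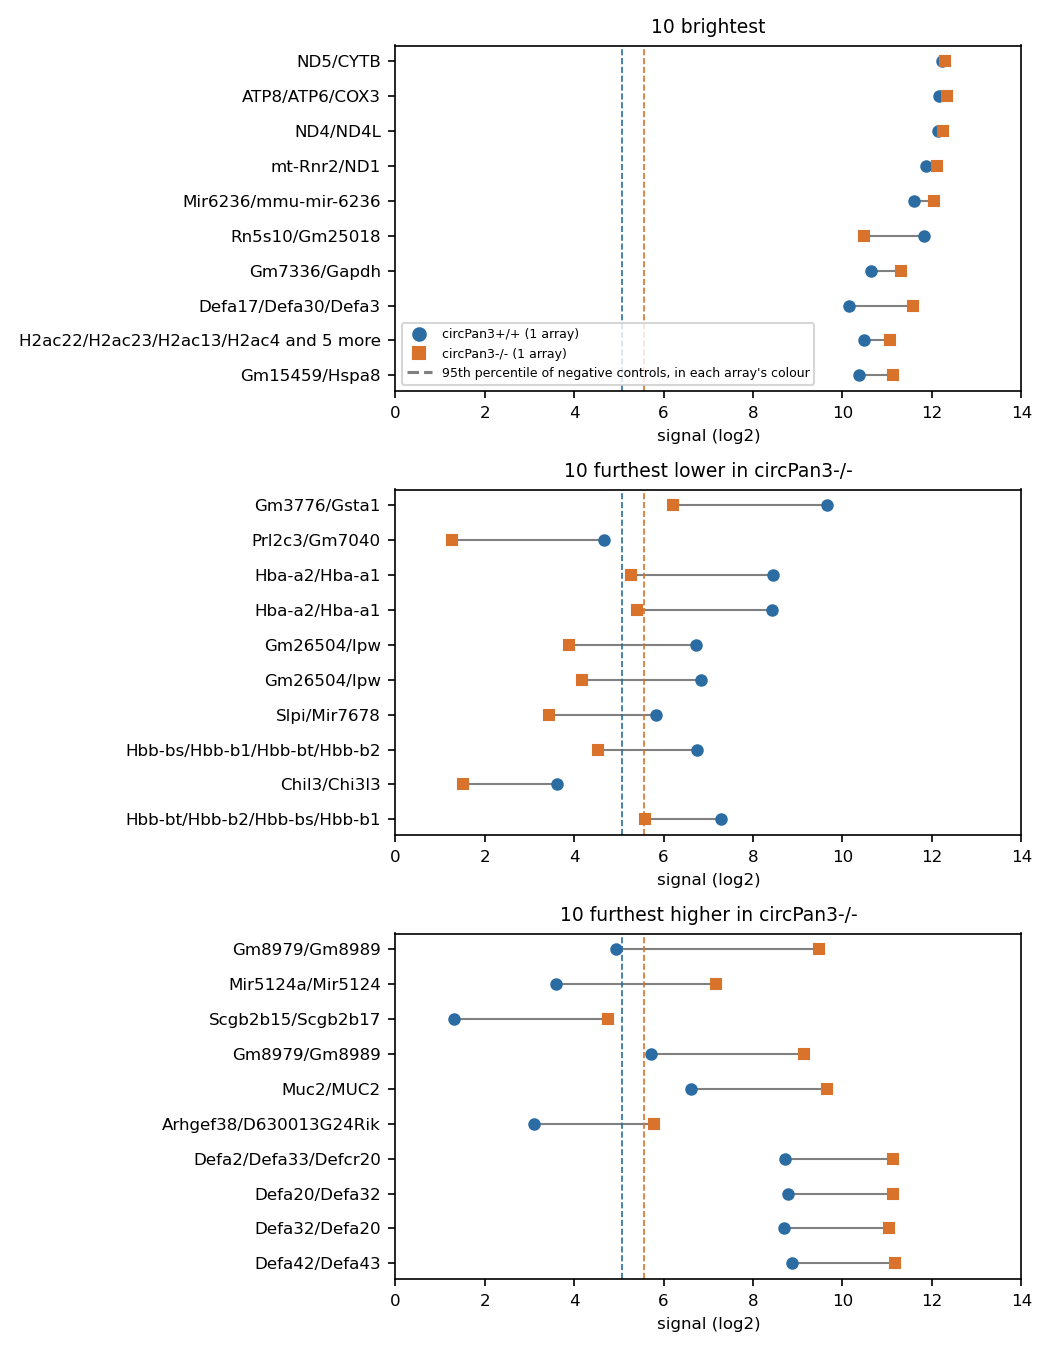
Log2 signal of the 10 brightest clusters by mean, the 10 furthest lower and the 10 furthest higher in circPan3-/-, on the circPan3+/+ array (circles) and the circPan3-/- array (squares). Dashed lines are the limits of 5.06 and 5.56; of the 10 furthest lower, only Gm3776/Gsta1 and 1 beta globin cluster have both values above them.

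Among the lower clusters, Gm3776/Gsta1 was the furthest. Gsta1 encodes an alpha class glutathione transferase, which conjugates glutathione to electrophiles. Its cluster stood at 9.64 in circPan3+/+ and 6.20 in circPan3-/-, a 10.9-fold difference with both values above the limits. Other alpha class genes have their own rows, and 2 of the 3 were lower by 2-fold or more: Gsta2 had 7.14 and 4.97 (at least 2.99-fold lower) and Gsta4 7.24 and 4.82 (at least 3.21-fold lower). Gsta3 differed by -0.94 with both values under the limits.

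Globin clusters were also among the 10 furthest lower. Alpha and beta globin are the chains of haemoglobin, made in red cell precursors. The clusters of Hba-a2/Hba-a1 had 8.44 and 8.42 in circPan3+/+ against 5.28 and 5.41 in circPan3-/-, at least 7.40-fold and 7.31-fold lower. The clusters of the adult beta globin genes had 6.75 and 4.52, at least 2.29-fold lower, and 7.29 and 5.58, 3.28-fold lower. Of 9 other red cell genes with their own row, a list drawn up after these values were seen, Alas2 differed by -1.49, at 4.50 and 3.01, with both values under the limits and no bound. Slc4a1, Klf1, Epb42, Hemgn, Epor, Rhag and Sptb also lay under the limits on both arrays, and Tfrc, which dividing cells use too, had 5.69 and 7.06.

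The SNORD116 locus is an imprinted host of many small nucleolar RNA copies, and its rows are annotated to Ipw and Gm26504. Of its 31 rows, 30 were lower by 2-fold or more. They hold only 2 pairs of values, 19 rows at 6.84 in circPan3+/+ and 4.18 in circPan3-/- and 11 rows at 6.73 and 3.88, at least 2.44-fold and 2.26-fold lower. The other row had 3.16 and 2.72. These rows are therefore 2 measurements beside 1 dim one, not 31.

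Several further lower clusters hold genes of surface or immune defence. Sprr2a3/Sprr2a2/Sprr2a1, small proline-rich genes of stressed epithelium, had 11.01 and 9.30, a 3.27-fold difference, whereas Sprr2a2/Sprr2a1 had 6.66 and 6.18, a 1.39-fold difference. Of 13 small proline-rich and squamous genes with their own row, a list added after seeing the values, 5 passed the filter and 1 of those, Sprr2b (9.38 and 7.67), was lower by 2-fold or more; Sprr1a had 6.15 and 5.85. Slpi/Mir7678, which holds the gene of a secreted inhibitor of leukocyte proteases, had 5.82 and 3.45, at least 1.20-fold lower. The 9 clusters of the lymphoid chemokine gene Ccl21 and its copies were all lower, from -1.26 to -1.50, and hold 5 different pairs of values. Ccl21a/Gm1987, the only one above the limits on both arrays, had 6.84 and 5.58, a 2.40-fold difference. Of 6 genes of lymphatic endothelium and reticular stroma with their own rows, a list also drawn up after seeing the values, Pdpn was at least 1.25-fold lower (5.88 and 3.58) and 0 were higher by 2-fold or more. Ccl19 and Prox1 differed by 0.53 and 0.33, and Lyve1, Flt4 and Cxcl13 by -0.31, -0.66 and -0.16, under the limits. The 5 shared clusters of Ccl19 and its copies, also under the limits, differed by -0.10 to 0.72.

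The 3 shared clusters of myeloid receptor genes were lower but dim. The 4 shared clusters of T and NK cell receptor genes, also under the limits, differed by -0.58 to 0.84. Pira1/Pira2, Gm14548/Pira2/Pira1 and Gm15448/Pirb, paired immunoglobulin-like receptors of myeloid cells, differed by -1.47, -1.41 and -1.10 with all values under the limits. Spi1, a myeloid transcription factor listed under a pair of names, had 6.20 and 5.14, at least 1.57-fold lower. The Pira, Pirb and Spi1 clusters went with most of the myeloid markers on their own rows, 17 of 22 of which were lower (8 with bounds). Among these markers, Cd68 had 6.97 and 4.21, at least 2.66-fold lower, and S100a8 5.85 and 1.92, at least 1.23-fold lower. Of the others, Lyz2 had 10.55 and 10.51, and Ptprc, Ccl3, Cd300lf and Ccl4 differed by -0.18, -0.28, -0.49 and 0.60. The share of myeloid RNA in the Pira, Pirb and Spi1 clusters was not tested.

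The ferritin light chain, an iron storage protein, was lower in both of its clusters. Ftl1/Mir692-3 had 9.83 and 8.38, a 2.73-fold difference, and the cluster that adds Mir692-2 and Ftl2-ps had 9.77 and 8.26. Ftl1 on its own row had 8.96 and 7.82. The heavy chain gene Fth1 had 10.42 and 9.04, and Hmox1, which frees iron from haem, had 8.32 and 3.97. Not all genes of iron handling went this way: the transferrin receptor gene Tfrc differed by 1.37, and the iron transporter genes Slc11a2 and Slc40a1 by -0.13 and -0.63 under the limits. Ass1/Gm5424, with the urea cycle enzyme argininosuccinate synthase, had 6.92 and 5.25, at least 2.58-fold lower, and Gm5424 alone 6.73 and 5.18.

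The furthest higher cluster was Gm8979/Gm8989. RefSeq lists both as transcribed pseudogenes beside Gvin1, which encodes a very large interferon-inducible GTPase. One cluster had 4.93 in circPan3+/+ and 9.48 in circPan3-/-, at least 21.5-fold higher, and the other had 5.71 and 9.13, 10.7-fold higher with both values above the limits. The neighbouring cluster of Gm4070, Gvin1, Gm18852 and Gm18853 had 5.16 and 4.87, and the row of Gvin1 alone 5.59 and 4.97. Neither row of Gvin1 was higher in circPan3-/-. Of 30 interferon response genes with their own row, 0 were higher by 2-fold or more and 14 lower. With bounds only Irf7 was lower, and 14 of the 30 lay under the limits on both arrays.

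Alpha defensins, antimicrobial peptides of Paneth cell granules, formed the largest group of bright clusters that were higher. All 13 clusters were above the limits on both arrays and higher by 2-fold or more, with differences from 1.35 to 2.42. Of all transcript clusters past the filter 9.4% were higher, and 2.46% with bounds. Their median signal was 8.87 in circPan3+/+ and 11.14 in circPan3-/-. The ranges over the clusters of 1 array, not over replicates, were 8.59 to 10.15 and 10.88 to 11.58. The dimmer clusters on the circPan3+/+ array differed most: Defa2/Defa33/Defcr20 had 8.71 and 11.14, a 5.36-fold difference, whereas Defa23/Defa31 had 10.03 and 11.38, a 2.55-fold difference. All 13 differences stayed above 1 after centring, loess and quantile normalization, the lowest at 1.06. Of 23 defensin genes with their own row 19 passed the filter, and 17 of those were higher by 2-fold or more. The clusters share genes and sequence, so they are not 13 separate measurements.

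Of the Paneth marker genes with their own row, 16 of 17 were higher by 2-fold or more, against 8.55% of all clusters with 1 symbol past the filter. Of 11 goblet marker genes 10 passed the filter and 8 of those were higher. After centring 6 were higher and 1, Ccl9, lower. Muc2, the main mucin of goblet cells, is listed under a pair of spellings of 1 symbol and had 6.60 and 9.65, an 8.23-fold difference. The other goblet genes Clca1 (6.66 and 9.93) and Fcgbp (5.57 and 8.23) stood beside it, whereas Ccl6 differed by 0.48 and Ccl9 by -0.95 (7.09 and 6.14). The share of Paneth or goblet RNA in these clusters was not tested.

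Some other clusters higher in circPan3-/- held a gene of antigen presentation or histone genes. Cd74/Mir5107, with the gene of the MHC class II invariant chain, had 8.76 and 10.52, a 3.41-fold difference. Of 9 other class II genes with their own row, 6 were higher by 2-fold or more (4 with bounds), among them H2-Ab1 (7.55 and 8.94) and H2-Aa (5.13 and 6.44), a list chosen after the values were seen; after centring 4 were and after loess 2. The 8 shared clusters of H2 genes had a median of -0.08. H2-T3/H2-T18 alone among them differed by over 2-fold, at 3.62 and 5.21 under the limits, and 0 were higher with bounds. Among histones, which package DNA, 6 of 50 clusters past the filter were higher by 2-fold or more and 1 lower, and after centring 3 and 3. H2bc8/H2bc6/H2bc4 had 5.04 and 7.11, at least 4.13-fold higher, and H2bc4/H2bc8/H2bc6, with the same genes in another cluster, had 8.52 and 9.65.

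Mir5124a, under a pair of names, had 3.59 and 7.16, at least 4.29-fold higher. Arhgef38, a guanine nucleotide exchange factor gene under a pair of names, had 3.10 and 5.78, at least 1.64-fold higher. Some of the furthest clusters lay under the limits on both arrays and carry no fold: Scgb2b15/Scgb2b17 had 1.30 and 4.76, Prl2c3/Gm7040 4.66 and 1.28, and Chil3 3.62 and 1.52.

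**Figure D4:**
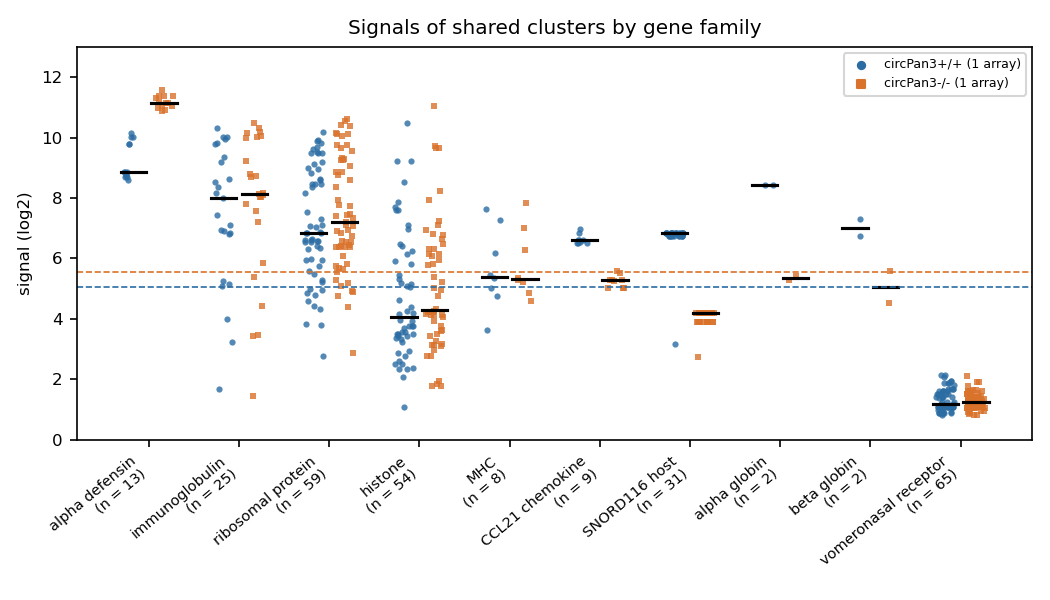
Log2 signal of every shared cluster of 10 gene families on the circPan3+/+ array (circles) and the circPan3-/- array (squares); black bars are medians, n is the number of clusters and dashed lines are the limits (5.06 and 5.56). The alpha defensin clusters lie higher on the circPan3-/- array, and all 65 vomeronasal receptor clusters lie under both limits.

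Other families with many clusters are read against 9.4% higher and 3.81% lower over all transcript clusters past the filter. Of 59 clusters of ribosomal protein genes 3 (5.08%) were higher by 2-fold or more and 0 lower, with a median of 0.35. After centring 1 was higher. Gm8210/Rpl29 had 8.45 and 9.65. Of 25 immunoglobulin clusters 24 passed the filter, and 3 of those (12.5%) were higher and 1 (4.17%) lower. With bounds 3 (12.5%) were higher and 0 lower, against 2.46% and 1.41% of all transcript clusters. After centring 0 were higher and 1 lower, and after quantile normalization 1 and 1. The median was 0.34 over all 25, and Igkv1-110/Igk, the brightest, had 10.31 on both arrays. Of 29 zinc finger gene clusters, 25 of them past the filter, 0 were past 2-fold in either direction. The 65 clusters of vomeronasal receptors, which sense pheromones in the nose, had medians of 1.19 and 1.24 and a highest value of 2.15, all under the limits and 0 past the filter. The 28 olfactory receptor clusters also lay under the limits.

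The counts by kind are read against 9.4% higher and 3.81% lower over all transcript clusters. The 435 clusters of 1 gene family held 265 past the filter, of which 35 (13.2%) were higher and 17 (6.42%) lower, with a median of 0.27. The 35 include all 13 alpha defensin clusters, which share genes and sequence. The 17 include globin clusters and Ccl21 clusters, some of which repeat the same values. These shares therefore do not count separate measurements. The 297 clusters of a named gene with a predicted model held 206, of which 15 (7.28%) were higher and 7 (3.40%) lower, near the background, with a median of 0.36. In 137 of these the partner is a pseudogene in RefSeq, and 11 of 119 past the filter were higher and 1 lower. The 339 clusters of predicted models alone were mostly dim, with 318 under both limits, and of 92 past the filter 10 (10.9%) were higher and 0 lower. The 117 clusters of different named genes held 100 past the filter, with 5 higher and 0 lower. Junb/Prdx2, with an immediate early transcription factor gene and a peroxiredoxin gene, had 5.25 and 6.23, a difference of 0.98, and 12 of 19 immediate early genes with their own row were higher.

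The 662 clusters with several names of 1 gene held 391 past the filter, with 21 (5.37%) higher and 10 (2.56%) lower and a median of 0.29. The 68 clusters of a small nucleolar or other small RNA gene with another gene had 3 higher and 30 lower, and the 30 are the SNORD116 rows. The 3 higher were Eif4a2/Snord2/Snora81, with a translation helicase gene (5.71 and 7.20), Eif5/Snora28, with a translation initiation factor gene (6.41 and 7.65), and 1110038B12Rik/Snord52 (5.17 and 6.37). The 21 clusters of small RNA genes alone had 11 past the filter, 0 higher and 3 lower, with a median of -0.62. Scarna13/Mir3069 had 6.06 and 4.54, at least 1.42-fold lower.

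**Figure D5:**
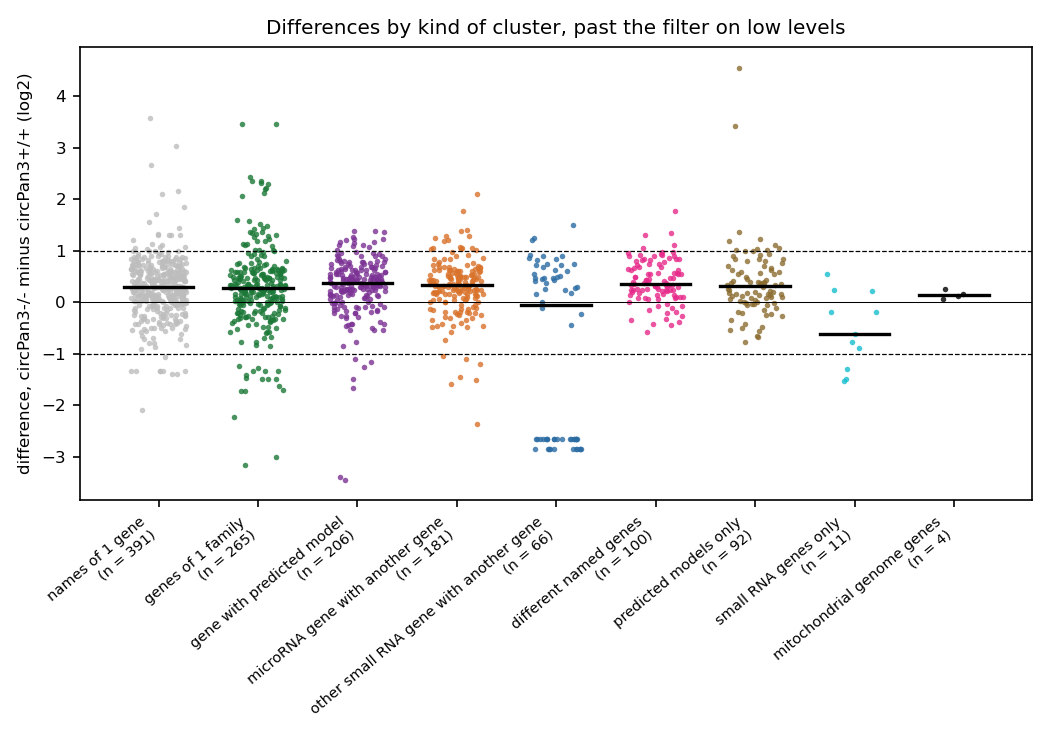
Difference (circPan3-/- minus circPan3+/+, log2) of each cluster past the filter by kind, with the median as a black bar, n the number of clusters and dashed lines at 2-fold; sideways scatter has no meaning. Medians lie between 0.14 and 0.36 except for the small RNA kinds, at -0.06 and -0.62, where the 30 SNORD116 rows form the band near -3.

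MicroRNA genes shared a cluster with another gene in 203 cases, with 235 microRNA genes in all. RefSeq places 195 of these inside a partner gene of the cluster and 40 not. Past the filter were 181 clusters, of which 16 (8.84%) were higher and 7 (3.87%) lower, with a median of 0.33. These shares are close to the background, 9.4% and 3.81% of all transcript clusters, so the clusters named next are described one by one. Among the higher were Taf1d/Gm25500 (3.99 and 6.09, at least 2.04-fold), with a subunit gene of the RNA polymerase I initiation factor, Arglu1/Mir7654 (5.004 and 6.41, at least 2.54-fold), with a gene of a splicing cofactor, and Fnbp1l/Mir7657 (4.98 and 6.35, at least 2.44-fold), with a gene of membrane bending. Fxyd5/Mir7050, with a regulator gene of the sodium pump, was lower at 6.43 and 5.85, a 1.49-fold difference.

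A few more of these clusters were picked after their values were seen. Ddx5/Mir3064, with an RNA helicase gene, had 7.21 and 8.45. Sptssa/Mir1892, with a sphingolipid synthesis subunit gene, had 5.82 and 7.02. Ccnd1/Mir3962, with the cyclin D1 gene, a Wnt target, had 4.97 and 6.16, and RefSeq places Mir3962 on another chromosome. Actg1/Mir6935, with a cytoplasmic actin gene, had 9.90 and 10.32. The last 2 bases of the hairpin were AG in 20.6% of the 170 microRNAs inside a partner and 23.7% of the 1005 hairpins of the table, so the shares are close.

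The list on deadenylation, the shortening of poly(A) tails, holds subunits of the CCR4-NOT complex, Pan2, Pan3, Parn and genes of proteins that act with these enzymes. Cnot1/Gm6158 had 6.62 and 7.89, a 2.41-fold difference, and Gm6158 on its own row 7.12 and 8.33. Cnot3/Mir3572 had 5.26 and 5.54, and Tnrc6b/Mir5113 4.57 and 5.25 under the limits. Of its 19 genes with their own row, 5 were higher by 2-fold or more and 0 lower: Cnot6, Cnot6l, Cnot7, Parn, another deadenylase, and Pabpc1, a poly(A) binding protein. With bounds 3 were, and after centring, loess or quantile normalization 0 were past 2-fold. Over all clusters with 1 symbol past the filter 8.55% were higher and 3.89% lower as deposited. Hnrnpa3/Gm6793, with a gene of an RNA-binding protein, had 7.29 and 8.52, and Hnrnpa3 alone 7.78 and 8.78.

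How the genes of a cluster lie to each other also varied. Of the 1484 clusters with several genes, 403 hold overlapping genes, 544 genes within 5 places of each other in the gene order, 381 genes further apart on 1 chromosome and 151 genes of different chromosomes. Past the filter were 353, 283, 139 and 146 of them, respectively. In that order 22 (6.23%), 24 (8.48%), 22 (15.8%) and 16 (11.0%) were higher, against 9.4% of all transcript clusters. Lower were 38 (10.8%), 18 (6.36%), 6 (4.32%) and 2 (1.37%), against 3.81%, and the 38 include the 30 SNORD116 rows. Clusters across chromosomes were bright, with 99 of 151 above both limits, and 84 of them pair a named gene with a predicted model.

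A gene of a shared cluster often has a row of its own, which shows how far the shared value follows that gene. There were 748 such pairs of rows, over 527 clusters and 488 genes. In the 402 pairs with both rows past the filter the median gap between their differences was 0.27, and 26 (6.47%) were 1 or more apart. Of 42 pairs with a cluster 2-fold or more apart, the gene's own row was past 2-fold the same way in 15 and the other way in 0. Among 179 pairs with all values above the limits the median gap was 0.21, and the differences had a Pearson correlation of 0.57 over these pairs, which share arrays and partly genes. The largest gap among them, 1.44, was that of Ighm/Ighv2-6 (6.93 and 8.03) and Ighm alone (6.60 and 6.27). Ighv5-12/Ighv5-15 went from 5.15 to 3.43, while Ighv5-12 alone had 8.10 and 9.09.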

How the data were processed

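Total RNA of both samples was hybridised to Affymetrix Clariom D mouse arrays. Affymetrix Power Tools and RMA are named in the submitters' processing notes for the authors' processing; their versions, the build and the unit are not stated there. From their range, the deposited values were taken as log2 signals. Symbols came from the platform annotation and were updated and typed with the RefSeq gene table (GRCm38.p6) by Entrez identifier, letter case ignored. Kinds follow symbols and RefSeq gene types, the latter a change from the plan, which used symbols alone. The kinds for names of 1 gene, small RNA genes only and mitochondrial genes were added later.

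Differences were taken with pandas 2.3.3, loess (span 0.3) with statsmodels 0.14.6. A cluster passed the filter where the mean of both arrays was at least 2.53, and was called at 2-fold. No test was possible with 1 array per genotype. Centring and loess were tried on simulated data, and the sorting into kinds on a few pairs of symbols. The other steps were not tested in this way. Alternatives were centring, loess, quantile normalization, other filters, limits and folds, and updated symbols.

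Named were the Ctnnb1 cluster, the 10 brightest, the 10 furthest in each direction, up to 4 in each direction of each kind (brighter value above its limit) and of each gene list, with rows of the same values counted once. Not every such cluster is described. Genes on their own rows were named as Wnt or junction partners or beside a cluster. Members and lists were chosen with earlier results of these data known, and the families, the added lists, the motifs and the sequences shown after their values were seen.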

Additional observations from a re-analysis of the deposited data

How the results depend on the processing

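The count of clusters higher by 2-fold or more was 105 as deposited. It was 50 after centring, 45 after loess, 47 after quantile normalization, 355 at 1.5-fold and 40 among clusters with 2 or more named genes. The count lower by 2-fold or more was 74, and 17 among clusters with 2 or more named genes and 37 with each pair of values once, an alternative chosen after seeing the data. With bounds, 56 were higher and 50 lower, 55 and 15 with each pair of values once, and 21 and 10 with the limit at the 99th percentile of negative controls. The other alternatives for these counts kept them within 1.5 times. The share of higher calls was 58.7% as deposited, and 35.5%, 33.3% and 34.3% after centring, loess and quantile normalization. The Ctnnb1 cluster stayed under 2-fold under all 3 scalings. Of 76 named clusters past 2-fold, 60, 56 and 59 stayed past it under these scalings and 0 turned direction. No paired analysis was possible because each genotype has 1 array, and for the same reason no array could be left out. Having 1 array per genotype limits the precision, and most clusters lie within the range of the negative controls.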
